A study of Mus musculus with 6 samples.

Results

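The immediate early genes described here are 10 transcription factor genes of the AP-1, EGR and NR4A families, chosen by name from the 17831 genes of the count table. They comprise the JUN genes Jun, Junb and Jund, the FOS genes Fos, Fosb and Fosl2, the EGR genes Egr1, Egr2 and Egr3, and the nuclear receptor gene Nr4a1. Of these, 9 had enough reads to be tested among 13623 genes, and Fosb did not. They were measured by bulk RNAseq in group 2 innate lymphoid cells (ILC2s), lung-resident lymphocytes that make type 2 cytokines without an antigen receptor. WT mice (labelled CB57BL/6) and SIRPα KO mice (labelled SIRPalphatm1Ynliu/J), at 6 to 8 weeks of age, all received 0.5 μg of IL-33 intranasally on 3 days. SIRPα is an inhibitory receptor for CD47. Lung ILC2s were sorted on day 4, and both groups were then cultured with IL-2 and IL-7 for 18 h by the study's results text and 24 h by a figure legend. Each group has 3 libraries, every one made from 10 pg of RNA. The mutant allele is carried by the whole mouse and not by ILC2s alone. No unstimulated or uncultured cells are among these libraries, so every level below is a level after IL-33 in vivo and culture with cytokines.

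Immediate early genes are transcribed within minutes of a stimulus, without new protein synthesis, when kinases such as ERK, p38 and JNK act on factors already bound at their promoters, and their mRNAs are usually short-lived. JUN proteins pair with each other or with FOS proteins to form AP-1, which binds DNA as a dimer, and EGR proteins bind GC-rich sites through zinc fingers. In lymphocytes AP-1 works beside NFAT and NF-κB at cytokine genes, whereas Egr2, Egr3 and Nr4a1 are also known for restraining activation. Junb and Jund tend to be present in cells that are not acutely stimulated, while Fos, Fosb, Egr1 and Nr4a1 usually peak early and decline.

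The promoter stretches below show the kind of DNA through which these genes are switched on. RefSeq promoter entries (GRCm38.p6) were found for 8 of the 10 genes, and Egr1 and Egr3 have none in the table used. In the 250 bases before each start site, both strands were searched for the CRE half-site TGACG (bound by CREB and ATF proteins), the AP-1 site TGANTCA, the site TGACATCA at which JUN proteins bind with ATF2, the CArG box bound by SRF, the EGR site GCGGGGGCG and the TATA box TATAAA. The last 120 bases before the start are printed 5′ to 3′ in the direction of transcription, with matches in capitals. The genes shown are those of the AP-1 subunits Fos, Jun and Junb, the EGR gene whose window holds a CArG box, and the NR4A gene.
Fos: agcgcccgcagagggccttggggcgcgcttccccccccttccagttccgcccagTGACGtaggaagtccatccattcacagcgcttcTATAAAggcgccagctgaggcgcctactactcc
Jun: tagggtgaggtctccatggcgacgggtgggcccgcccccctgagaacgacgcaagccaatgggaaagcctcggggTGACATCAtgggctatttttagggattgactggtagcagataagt
Junb: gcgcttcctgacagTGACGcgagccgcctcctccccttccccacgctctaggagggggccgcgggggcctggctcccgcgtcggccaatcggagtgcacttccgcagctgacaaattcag
Egr2: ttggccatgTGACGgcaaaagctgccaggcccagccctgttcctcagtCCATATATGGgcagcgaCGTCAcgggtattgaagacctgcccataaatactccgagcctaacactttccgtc
Nr4a1: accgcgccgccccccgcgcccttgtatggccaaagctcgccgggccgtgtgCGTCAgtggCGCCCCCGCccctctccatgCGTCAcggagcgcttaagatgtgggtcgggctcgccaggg
The Fos stretch (chr12:85473770-85473889, plus strand) holds a CRE half-site 66 bases before the start and a TATA box at 33 bases. Jun (chr4:95052223-95052342, minus strand) has TGACATCA 45 bases before its start, and Junb (chr8:84978749-84978868, minus strand) has a CRE half-site at 106 bases. The Egr2 stretch is that of 1 of 5 start sites in the table (chr10:67537749-67537868, plus strand) and holds a CArG box at 72 bases between 2 CRE half-sites. Nr4a1 (chr15:101266726-101266845, plus strand) has CRE half-sites on the opposite strand at 69 and 40 bases and an EGR site, also on the opposite strand, at 60 bases. Among all 32851 promoters of the table, the 250 bases before the start held TGACG in 17.8%, TGACATCA in 2.93%, a CArG box in 1.47%, GCGGGGGCG in 2.57%, TATAAA in 12.4% and TGANTCA in 6.75%. Jund had none of these letters in its window, but its RefSeq start lies 1210 bases upstream of the GENCODE gene start used below, so that window is not next to the annotated gene. The RefSeq starts of the Egr2 and Nr4a1 stretches lie inside the GENCODE genes, at inner start sites. Fosl2 held an EGR site and Fosb a CRE half-site with an EGR site. These matches are letters in the reference and do not show that a factor was bound in ILC2s.

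The libraries held 13980501 to 19051519 reads assigned to genes. Values are given as CPM (read counts scaled to the size of each library), and fold changes as SIRPα KO over WT on the log2 scale from edgeR's quasi-likelihood test, with Benjamini-Hochberg adjustment over all genes tested. Sirpa itself was at 8.57, 6.83 and 4.83 CPM in WT and at 3.07, 4.46 and 1.74 CPM in SIRPα KO, lower in every KO library but not absent. The type 2 lineage factor Gata3 stood at 846 to 1078 CPM and the IL-33 receptor gene Il1rl1 at 376 to 937 CPM over all libraries, both as in ILC2s. The coding of the libraries and their spread touch the results. In their descriptions, WT replicate 1 is coded 37 and WT replicate 2 is 37V1, while SIRPα KO replicate 2 is coded 44 and SIRPα KO replicate 3 is 44V1, so each group may hold 2 samples rather than 3, and p-values measure only the spread between these libraries. The biological coefficient of variation was 38.0% among WT libraries and 15.2% among SIRPα KO libraries. Because RNA was pooled over the cells of a sample, fewer cells expressing a gene and less of its mRNA per cell cannot be told apart.

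Compared per length, as CPM per kilobase of the longest annotated transcript, the 10 genes spanned a wide range with the same leaders in both groups. Junb was highest, at 212 ± 38.7 in WT and 150 ± 3.63 in SIRPα KO (mean ± SD, n = 3), above 97.2% and 96.4% of the genes tested. Jund came next at 63.3 ± 23.6 and 28.8 ± 7.62, and Nr4a1 followed at 11.3 ± 0.821 and 11.7 ± 0.937. Each of these was separated from the next gene in the order in every library of its group. In WT the order then ran Jun (7.86), Egr1 (5.65), Fos (3.58) and Fosl2 (3.57), and each of these overlapped the next in its library values, down to Fosl2. In SIRPα KO, Egr1 (9.57) stood before Jun (8.33), and Fosl2 (3.81) before Fos (2.77), with overlap within each of these pairs. Egr2 was at 1.16 ± 0.263 and 1.06 ± 0.196, Egr3 at 0.671 ± 0.0818 and 0.505 ± 0.107, and Fosb was last at 0.0113 ± 0.00998 and 0.0884 ± 0.0405 CPM per kilobase. Most of the summed level of the 10 genes was thus that of Junb and Jund, and Egr2, Egr3 and Fosb were the lowest.

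**Figure D1:**
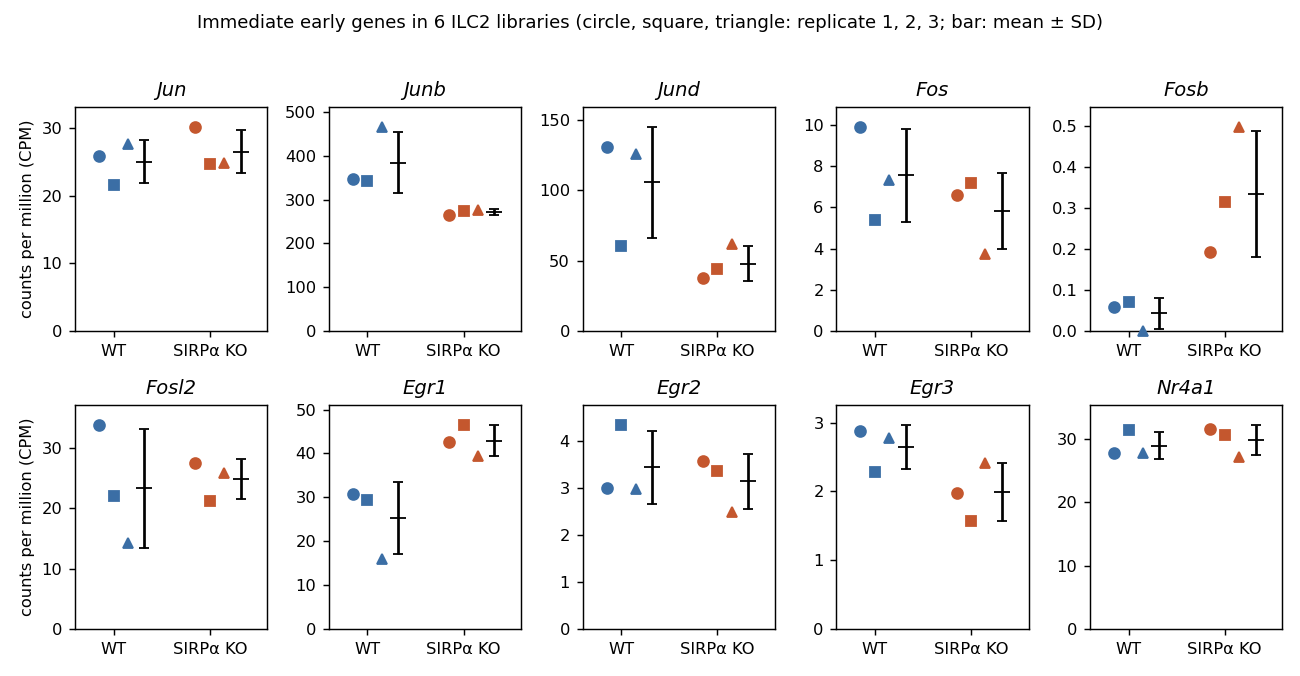
Level of each gene in CPM (vertical axis, from 0) in the 3 WT libraries (blue) and the 3 SIRPα KO libraries (red), with circle, square and triangle for replicates 1, 2 and 3 and a black bar for the mean ± SD. All SIRPα KO points of Junb lie below the WT points, all those of Egr1 and Fosb lie above them, and the other genes overlap between the groups.

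The question put to these libraries was which genes differ when SIRPα is missing. None of the 9 genes tested was past an adjusted p of 0.05 in edgeR, against 11.7% of all genes tested (5.94% higher in SIRPα KO, 5.81% lower). Without adjustment, 3 had a p under 0.05 (Junb, Jund and Egr1), against 32.0% of all genes. WT and SIRPα KO libraries were fully separated for 2 of the 9, Egr1 (higher) and Junb (lower), against 42.8% of all genes tested (21.6% higher, 21.2% lower). For the unadjusted p the share of the 9 was close to that of all genes, and for the other counts it was below it. The median log2 fold change of the 9 was -0.13, with 4 above 0 and 5 below, where the median over all genes tested was -0.025.

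Junb, an AP-1 subunit that is a weaker activator than c-Jun in many settings and supports type 2 cytokine genes in T helper cells, was at 346, 342 and 465 CPM in WT and at 264, 273 and 277 CPM in SIRPα KO. WT replicate 3 stood well above the other WT libraries, the SIRPα KO libraries lay close together, and the groups did not overlap. The log2 fold change was -0.50 (SE 0.14, adjusted p = 0.0537 from edgeR). With 4133 to 7023 reads in a library, counting error would give a CV of 1.3% in WT, where 18.2% was observed, and 1.5% in SIRPα KO, where 2.4% was observed. The gene lies at chr8:84974484-84978718 (GRCm38, GENCODE M21, minus strand) and shares 351 bases with Prdx2, a peroxiredoxin gene on the other strand. Whether reads were counted by strand is not given in the sources used here, so reads in the shared stretch cannot be assigned with certainty. Prdx2 was at 231, 222 and 318 CPM in WT and at 192, 184 and 189 CPM in SIRPα KO, with a log2 fold change of -0.45 (adjusted p = 0.0905 from edgeR), which resembles Junb in its high value in WT replicate 3.

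Jund, the AP-1 subunit most often present in resting cells and known for slowing growth, was at 131, 60.4 and 126 CPM in WT and at 37.6, 44.2 and 62.1 CPM in SIRPα KO. WT replicate 2 was less than the other WT libraries and fell below SIRPα KO replicate 3, which is the only overlap between the groups. The log2 fold change of -1.14 (SE 0.31, adjusted p = 0.0539 from edgeR) was the largest of the 9 in size. WT replicates 1 and 2, which share the code number 37, differed from each other by more than WT replicate 2 differed from any SIRPα KO library. Jund (chr8:70698949-70700616, plus strand) overlaps an antisense gene, Gm11175, over 919 bases, and no column of that name is in the count table.

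Jun, which encodes c-Jun, the main target of JNK among the AP-1 proteins, was at 25.9, 21.6 and 27.7 CPM in WT and at 30.2, 24.7 and 24.8 CPM in SIRPα KO. The groups overlapped and the log2 fold change was 0.08 (SE 0.18, adjusted p = 0.782 from edgeR). Its antisense neighbour Junos had at most 0.463 CPM in any library. The 3 JUN genes thus stood at different fold changes, with Jund and Junb below 0 and Jun near 0.

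Fos encodes c-Fos, which needs a JUN partner to bind DNA. It was at 9.89, 5.40 and 7.35 CPM in WT and at 6.58, 7.19 and 3.72 CPM in SIRPα KO, with overlapping groups and a log2 fold change of -0.37 (SE 0.36, adjusted p = 0.501 from edgeR). Fosl2 encodes Fra-2, a FOS protein that lacks the strong activation domain of c-Fos. It was at 33.8, 22.0 and 14.2 CPM in WT and at 27.5, 21.2 and 25.9 CPM in SIRPα KO, and the WT libraries enclosed all 3 SIRPα KO values. Its log2 fold change was 0.09 (SE 0.31, adjusted p = 0.859 from edgeR).

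Fosb, which like Fos usually peaks early and declines, had 1, 1 and 0 reads in WT and 3, 6 and 8 reads in SIRPα KO. Every SIRPα KO library had more reads than any WT library. Summed over libraries this is 2 against 17 reads, a ratio of 7.79 after scaling to depth, with a 95% exact interval of 1.85 to 69.5 that covers counting error only and not the spread between samples. At 0.496 CPM or less in every library the gene is near the limit of detection, and it did not pass the filter on low counts.

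Egr1, the EGR factor induced most widely by growth factors and antigen receptors, was at 30.8, 29.3 and 15.9 CPM in WT and at 42.7, 46.5 and 39.5 CPM in SIRPα KO. Each SIRPα KO library exceeded each WT library, and WT replicate 3 was the lowest of all. The log2 fold change was 0.76 (SE 0.26, adjusted p = 0.0891 from edgeR), the highest of the 9. WT replicate 3, which stood highest for Junb, thus stood lowest for Egr1.

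Egr2 and Egr3, which in T cells raise the inhibitors of receptor signalling that mark anergy, were low. Egr2 was at 2.99, 4.34 and 2.98 CPM in WT and at 3.58, 3.36 and 2.48 CPM in SIRPα KO (log2 fold change -0.13, SE 0.37, adjusted p = 0.833 from edgeR). Egr3 was at 2.88, 2.28 and 2.78 CPM in WT and at 1.98, 1.57 and 2.42 CPM in SIRPα KO (log2 fold change -0.41, SE 0.40, adjusted p = 0.507 from edgeR). Both genes overlapped between the groups, Egr3 through WT replicate 2 and SIRPα KO replicate 3 alone. They rest on 30 to 64 reads in a library, for which counting error by itself gives a CV of 13.7% to 17.3%, so a difference of the size seen for Egr1 would be harder to detect in them.

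Nr4a1, which encodes the orphan nuclear receptor Nur77 and serves as a readout of antigen receptor signalling in T and B cells, was at 27.7, 31.4 and 27.7 CPM in WT and at 31.6, 30.7 and 27.1 CPM in SIRPα KO. The groups overlapped almost completely. The log2 fold change was 0.04 with an SE of 0.16 (adjusted p = 0.872 from edgeR), and the CV was 7.2% in WT and 8.0% in SIRPα KO, the steadiest of the 10 genes in WT. A change of moderate size is not shown to be absent by this test.

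Fold changes in these libraries followed transcript length over the whole table, and the genes differ in length. Genes averaging 3 or more on the log2 CPM scale were split into 10 groups by length, and the median log2 fold change went from -0.55 in the shortest group to 0.47 in the longest. Junb (1809 bases) and Jund (1668 bases) belong to a group with a median of -0.28, and Egr1 (4484 bases) to a group with a median of 0.29. When length and GC content were corrected for, Junb had a log2 fold change of -0.01 (adjusted p = 0.981 from edgeR) while that of Jund was -0.46 (adjusted p = 0.124 from edgeR) and that of Egr1 0.73 (adjusted p = 0.0561 from edgeR). Relative to genes of its length and base composition, the value of Junb was thus close to 0, and that of Egr1 was nearly as large as before. The GC content of the longest transcript was 62.6% for Junb, 67.1% for Jund and 57.3% for Egr1. The parts of length and of GC content in the correction were not separated. Fosl2, the longest of the genes at 6537 bases, moved from 0.09 to -0.16, and Nr4a1 moved from 0.04 to 0.23. None of the 9 passed the threshold with the correction, and whether the trend in length arose in the cells or in the libraries was not tested.

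**Figure D2:**
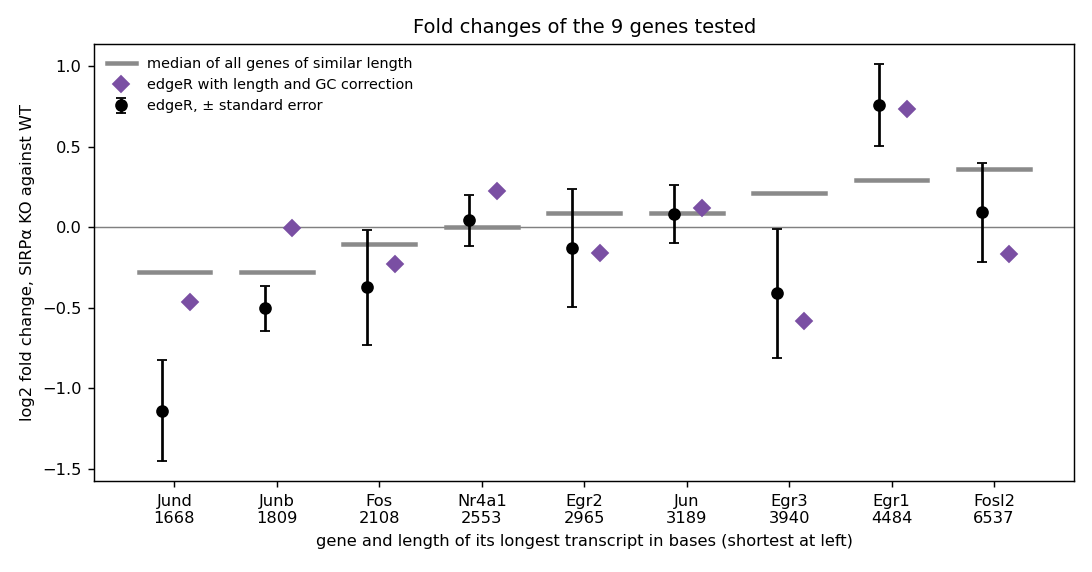
Log2 fold change of SIRPα KO against WT (vertical axis) for the 9 genes tested, ordered by the length of the longest transcript in bases, with edgeR's value and standard error (black), the value with the length and GC correction (purple) and the median of all genes in the same group by length (grey bar). Junb moves from -0.50 to -0.01 with the correction, Jund from -1.14 to -0.46, and Egr1 only from 0.76 to 0.73.

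The threshold itself lies close to the values of Junb, Jund and Egr1, so the call depended on the setting. DESeq2 called all 3 (adjusted p of 0.0148 for Junb, 0.00487 for Jund and 0.0253 for Egr1, with 26.9% of the genes it tested called). With edgeR, upper quartile factors called Junb and Jund (12.6% of all genes called), library size alone called Junb (11.5%), and keeping only genes with at least 10 reads in every library called Junb and Jund (16.7%). Leaving out WT replicate 2 called Junb and Jund (16.3% of all genes), and leaving out WT replicate 3 called Junb and Egr1 (18.4%). The same 3 genes were not called without any one of the SIRPα KO libraries. Over the whole table only 16, 17 and 17 genes were then called, without SIRPα KO replicate 1, 2 and 3. With the libraries of one code summed, which leaves 2 samples a group, the adjusted p from edgeR was 0.176 for Junb, 0.130 for Jund and 0.195 for Egr1. Over 17 alternative settings the log2 fold change ran from -0.61 to -0.01 for Junb and from -1.42 to -0.46 for Jund. For Egr1 it ran from 0.52 to 0.93. Jund and Egr1 kept their side of 0. Junb stayed below 0 but came close to it with the length and GC correction (adjusted p = 0.981 from edgeR).

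**Figure D3:**
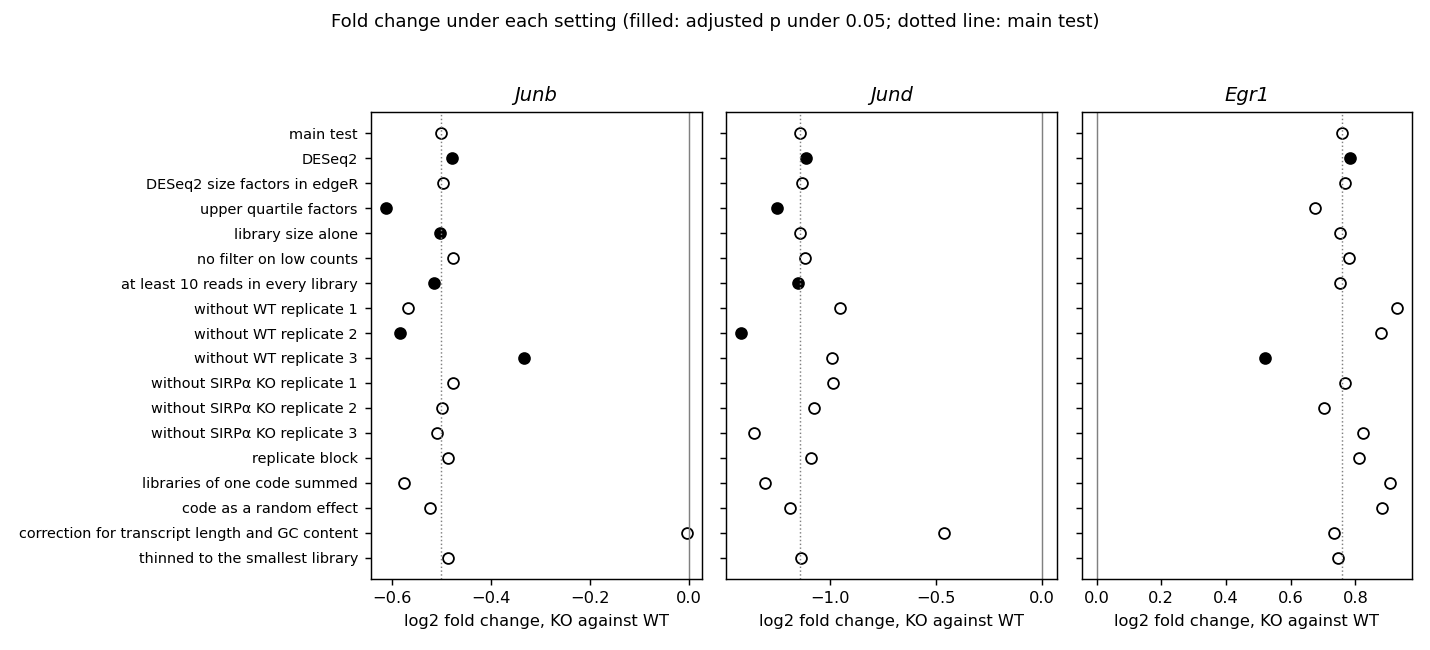
Log2 fold change of SIRPα KO against WT (horizontal axes) for Junb, Jund and Egr1 under the main test and 17 alternative settings (rows), with filled circles where the adjusted p is under 0.05 and a dotted line at the main value. Junb is past the threshold under 6 of the 17 settings, Jund under 4 and Egr1 under 2, and the length and GC correction brings Junb to -0.01.

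The make-up of each family was also compared, since AP-1 dimers form from whichever subunits are present, and since a share within a library does not depend on how libraries were scaled to each other. This comparison was added after the values were seen, and an exact two-sided permutation test of 3 against 3 cannot give a p below 0.1. If libraries of one code share a sample, the exact test of 2 against 2 could not give a p below 0.333. In the EGR family, Egr1 made up 79.8%, 76.2% and 67.4% of the summed level per length in WT and 84.8%, 87.1% and 85.9% in SIRPα KO. The groups did not overlap, with means of 74.5 ± 6.36% and 85.9 ± 1.18% (SD, n = 3, p = 0.1 by the exact permutation test). Shares of a family sum to 100%, so those of Egr2 and Egr3 must be smaller where that of Egr1 is larger, and their own levels overlapped between the groups. Their shares were, for Egr2, 16.0 ± 3.83% in WT and 9.47 ± 1.30% in SIRPα KO and, for Egr3, 9.55 ± 3.47% and 4.61 ± 1.32%. Egr1 thus dominated the EGR transcripts in both groups, by a wider margin in each SIRPα KO library. In the JUN family, Junb took 68.8%, 81.5% and 75.4% in the WT libraries and 82.0%, 81.5% and 77.3% in the SIRPα KO libraries, Jund 22.0 ± 6.31% and 15.3 ± 3.17%, and Jun 2.80 ± 0.219% and 4.48 ± 0.738%. Of these only the share of Jun did not overlap between the groups (p = 0.1 by the exact permutation test), although the level of Jun itself overlapped. Non-overlap by itself gives this p, and by level the groups did not overlap for 42.8% of all genes tested. For the FOS genes only Fos, Fosb and Fosl2 were summed. Fosl1, a FOS gene outside the 10, was left out. It stood above that sum, at 15.7 ± 1.06 CPM per kilobase in WT and 17.5 ± 2.72 in SIRPα KO. The values below are therefore not the make-up of the whole FOS family. Fos took 50.8 ± 9.69% of the sum in WT and 41.0 ± 10.3% in SIRPα KO. Fosl2 made up nearly all of the rest, and these shares overlapped. The summed JUN level was 284 ± 54.8 CPM per kilobase in WT and 187 ± 10.3 in SIRPα KO. That of Fos, Fosb and Fosl2 was 7.16 ± 2.36 and 6.66 ± 0.765, and that of the EGR family 7.48 ± 1.93 and 11.1 ± 0.824. Transcripts of Fos, Fosb and Fosl2, and those of Fosl1, were thus far fewer than JUN transcripts in every library. These shares and sums were not corrected for length or GC content. Jun belongs to a group by length with a median log2 fold change of 0.09, against -0.28 for Junb and Jund. The medians are 0.29 for the group of Egr1, 0.09 for that of Egr2 and 0.21 for that of Egr3. The part of the trend in length in the shares and sums was not tested.

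**Figure D4:**
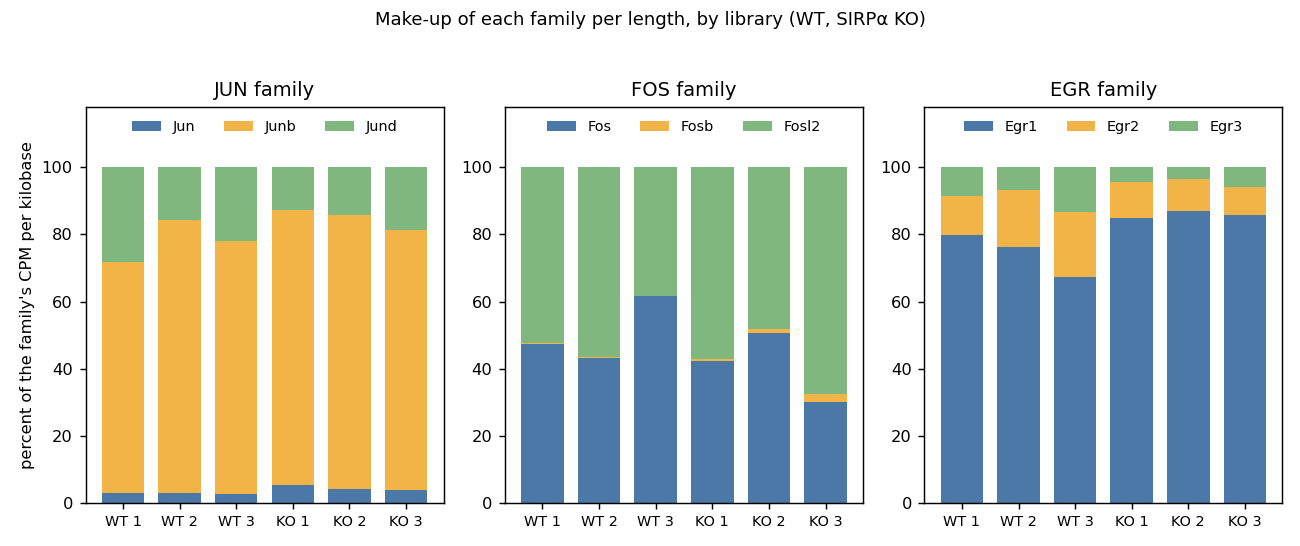
Share of each gene in the summed CPM per kilobase of its family (vertical axis, percent) in the 3 WT and 3 SIRPα KO libraries, as stacked bars for the JUN, FOS and EGR families. The FOS bars hold Fos, Fosb and Fosl2 and leave out Fosl1. Junb fills most of the JUN bars in all libraries, and Egr1 fills 67.4% to 79.8% of the EGR bars in WT and 84.8% to 87.1% in SIRPα KO.

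Other genes of these families and of the pathways that act on them were compared by lists, with edgeR's adjusted p throughout. When one of the SIRPα KO libraries was left out, whichever it was, or when libraries of one code were summed, 0 genes of these lists were past the threshold. Over all genes only 16 to 17 passed without one of these libraries and 10 with the sums, so this is not particular to the lists. Of 14 other AP-1 bZIP factors 11 were tested, of which 1 was higher, 1 was lower and the median log2 fold change was -0.09. Over all genes tested 5.94% were higher and 5.81% lower. Batf3, a BATF factor that pairs with JUN proteins and is needed by cross-presenting dendritic cells, was at 3.74, 2.35 and 7.15 CPM in WT and 0.767, 0.997 and 0.930 CPM in SIRPα KO (log2 fold change -2.28, adjusted p = 0.0334 from edgeR). Atf7, an ATF2 relative that pairs with JUN proteins at CRE-like sites, averaged 22.2 CPM among WT libraries (SD 3.95, n = 3) against 40.6 CPM among SIRPα KO libraries (SD 5.24, n = 3), without overlap (log2 fold change 0.87, adjusted p = 0.0315 from edgeR). Neither passed with the length and GC correction (adjusted p of 0.0574 and 0.147 from edgeR). Without WT replicate 3 the list had 4 past the threshold, where 18.4% of all genes passed. The others had log2 fold changes of 0.17 for Batf, 0.86 for Atf2, -0.40 for Atf3, 0.16 for Fosl1, -0.34 for Jdp2, -0.23 for Maf, -0.68 for Maff, -0.09 for Mafg and 0.19 for Mafk, none past the threshold. Batf, a partner of JUN proteins in lymphocytes, stood at 117, 113 and 159 CPM in WT and 134, 150 and 153 CPM in SIRPα KO. Per length this is 136 ± 26.4 CPM per kilobase in WT and 153 ± 10.5 in SIRPα KO, between Jund and Junb in WT, about level with Junb in SIRPα KO and far above any FOS gene in both. With the length and GC correction Batf was past the threshold (log2 fold change 0.80, adjusted p = 0.00512 from edgeR).

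Among the other EGR and NR4A genes and the EGR corepressors, 3 of 5 were tested and none passed, where 11.7% of all genes tested did. Nab1, which binds EGR proteins and represses their targets, was at 124, 33.4 and 43.2 CPM in WT and 33.9, 33.0 and 78.6 CPM in SIRPα KO, with 1 library of each group standing above the rest (log2 fold change -0.46, adjusted p = 0.578 from edgeR). Its relative Nab2, itself an EGR target, was at 26.9, 27.4 and 30.5 CPM in WT and 35.8, 33.6 and 31.3 CPM in SIRPα KO, with no overlap between the groups (log2 fold change 0.25, adjusted p = 0.298 from edgeR). Nr4a2 had at most 1.35 CPM and a log2 fold change of -0.52 (adjusted p = 0.770 from edgeR), and Nr4a3 had at most 0.806 CPM and was not tested. Both were near the limit of detection, unlike Nr4a1.

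Of 38 other immediate early genes 33 were tested, of which 25 had a log2 fold change below 0 and 8 above, with a median of -0.27. In all 3 passed the threshold (1 higher and 2 lower), where 11.7% of all genes did. The count depended on the setting, with 8 for the length and GC correction (3 higher and 5 lower) and 7 for DESeq2. It was 8 without WT replicate 3 and 5 without WT replicate 1 or WT replicate 2. Over all genes the correction called 1210 of 13623 and DESeq2 26.9%. Without WT replicate 3 the share was 18.4%, without WT replicate 2 it was 16.3%, and without WT replicate 1 it was 1112 of 14026. Ier2, an early response gene of unsettled function, was at 147, 120 and 152 CPM in WT and 82.6, 85.5 and 90.2 CPM in SIRPα KO (log2 fold change -0.70, adjusted p = 0.0215 from edgeR), and with the length and GC correction its adjusted p from edgeR was 0.315. Btg1, an antiproliferative gene, was at 257, 268 and 266 CPM in WT and 189, 186 and 180 CPM in SIRPα KO (log2 fold change -0.51, adjusted p = 0.0207 from edgeR). Nfkbiz, which encodes the NF-κB cofactor IκBζ, was at 30.0, 36.6 and 27.6 CPM in WT and 56.8, 55.3 and 65.7 CPM in SIRPα KO (log2 fold change 0.92, adjusted p = 0.0190 from edgeR). By direction, 1 of 33 was called higher and 2 of 33 lower, where 5.94% and 5.81% of all genes tested were. Nothing particular to immediate early genes is read from these counts.

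The factors and kinases upstream were mostly not past the threshold. Of 17 SRF, TCF and CREB factors and their partners 16 were tested and 2 were higher, close to the share of 11.7% over all genes in either direction. They were the coactivator gene Ep300 (log2 fold change 1.39, adjusted p = 0.00746 from edgeR) and the MADS-box gene Mef2a (1.05, adjusted p = 0.0418 from edgeR, and 0.0591 with the length and GC correction), around a median of -0.01. Of 20 kinase genes 19 were tested, with 2 higher, 1 lower and a median of 0.14, beside 11.7% of all genes in either direction. Mapk3, encoding ERK1, was at 75.4, 60.8 and 66.9 CPM in WT and 37.6, 35.0 and 34.3 CPM in SIRPα KO (log2 fold change -0.93, adjusted p = 0.0144 from edgeR). Also called was Rps6ka5, encoding MSK1, a kinase of histone H3 and CREB at immediate early promoters, with a log2 fold change of 1.17 (adjusted p = 0.0136 from edgeR).

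Of 18 genes for the turnover of AP-1 proteins and of AU-rich mRNAs all were tested, and 2 were higher, among them the deadenylase gene Cnot7 (log2 fold change 0.83, adjusted p = 0.0186 from edgeR, and 0.0743 with the length and GC correction), with a list median of 0.09 and beside 5.94% of all genes. Of 13 genes known to respond to EGR2 and EGR3 in lymphocytes 11 were tested, 3 were lower and none was higher, against 5.81% and 5.94% of all genes, with a median of -0.46. These were the cell cycle inhibitor gene Cdkn1a (548, 585 and 689 CPM in WT and 402, 396 and 415 CPM in SIRPα KO, log2 fold change -0.59, adjusted p = 0.0215 from edgeR) and the cytokine signalling inhibitor genes Socs1 (-0.69, adjusted p = 0.0367 from edgeR) and Socs3 (-0.55, adjusted p = 0.0461 from edgeR). With the length and GC correction Cdkn1a alone of these was past the threshold (adjusted p = 0.0352 from edgeR, with 0.0864 for Socs1 and 0.173 for Socs3). Itch, named after its values were seen, encodes a ubiquitin ligase of JUN proteins and had the highest log2 fold change of the list, 1.27, with 53.2, 66.4 and 20.1 CPM in WT and 111, 112 and 114 CPM in SIRPα KO (adjusted p = 0.0626 from edgeR and 0.00457 from DESeq2). Each of these genes is also regulated by other factors. Without WT replicate 3 the list had 5 genes past the threshold, where 18.4% of all genes passed. Heat shock genes, which rise with immediate early genes when cells are handled, had 4 of 13 higher and none lower, against 5.94% and 5.81% of all genes, around a median of 0.31. The count was 7 without WT replicate 3, where 18.4% of all genes passed. Hspa1b was at 7.02, 9.24 and 12.8 CPM in WT and 44.7, 28.3 and 36.0 CPM in SIRPα KO (log2 fold change 1.91, adjusted p = 0.0134 from edgeR), and Hspd1 (0.75), Hsph1 (0.68) and Hsp90ab1 (0.45) also passed. With the length and GC correction Hsph1 had an adjusted p of 0.0894 from edgeR, and the other 3 stayed past the threshold. The part of handling in the values of the immediate early genes was not tested.

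Marker genes of other lymphocytes also differed between the groups. Over all genes tested 5.94% were called higher and 5.81% lower, and the groups did not overlap for 42.8% (21.2% lower). The summed level of 4 B cell markers was 31.6 to 38.5 CPM in WT and 14.0 to 15.8 CPM in SIRPα KO, with 3 of 4 tested lower. That of 7 T cell markers was 150 to 202 CPM and 94.4 to 101 CPM, with 2 of 3 tested lower. All 3 had a log2 fold change below 0. Cd4 was at 0 in every WT library, and 3 of the 7 markers were under 1 CPM in every library. For 6 NK cell markers it was 14.5 to 25.9 CPM and 1.79 to 3.73 CPM, with 3 of 5 tested lower, and Eomes was at 0 in 2 SIRPα KO libraries. The B, T and NK cell sums were thus lower in every SIRPα KO library, without overlap. Macrophage and dendritic cell markers summed to 46.6 to 137 CPM in WT and 88.5 to 132 CPM in SIRPα KO, so these sums overlapped. Of 9 tested, 1 was called higher and none lower, with 7 log2 fold changes above 0 and 2 below. Fcgr1, C1qa and C1qb were at 0 in every WT library, but 3 of the 12 markers were under 1 CPM in every library of both groups. Granulocyte, basophil and mast cell markers summed to 68.5 to 125 CPM and 166 to 208 CPM, mostly through Kit, which ILC2s can also express, with none of 3 tested past the threshold. Stromal and epithelial markers summed to 67.7 to 92.5 CPM and 49.5 to 113 CPM, with 1 of 4 tested higher and 1 lower. Of 13 ILC2 markers 3 were higher (Il2ra, Ptprc and Il5) and 2 lower (Thy1 and Id2). By the study's methods the sort kept CD45, ST2 and CD127 positive cells and removed those with T cell, B cell, NK cell, myeloid and granulocyte surface markers and FcεRIα. The part of other cells in the values of Junb, Jund, Egr1 or Batf3 was not tested.

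The profiles most like those of the 9 genes tested were sought by the root mean square difference of log2 CPM, each gene centred on its own mean over the 6 libraries. Within the set, Nr4a1 was the nearest to Egr2 (0.17) and to Jun (0.18), Egr3 to Junb (0.22) and Jun to Fos (0.40), while Fosl2 and Egr1 were nearest to each other (0.40). Jund had the most distant neighbour, Egr3 at 0.46. Among 9016 genes outside every list whose log2 CPM averaged 3 or more, the nearest to Junb were Mrpl28, Gstp1 and Mrpl20 at 0.03 each. Those nearest to Jund were Coq10a, Dexi and Cited2, at 0.10 to 0.11, and those nearest to Egr1 were Phtf1, Eprs and Acly, at 0.06 to 0.07. Nr4a1 was nearest to Pgd (0.02), Thumpd3 and Timeless, Jun to Eif4a-ps4 (0.04), Nudt3 and Uchl5, and Fos to Pcbp4, Phf2 and Zcwpw1, all at 0.21. Fosl2 was nearest to Strbp (0.10), Ddx11 and Thap1, Egr2 to Ercc3 (0.07), Zswim4 and Tbc1d2, and Egr3 to Tmem41a (0.06), Adipor2 and Trmo. With 6 libraries many genes share a profile by the group means alone.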

How the data were processed

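ILC2s were lysed after culture, and RNA was made into cDNA with a low-input SMARTer kit and sequenced on an Illumina instrument. The authors worked in Partek with STAR as the aligner, the mm10 genome and GENCODE M21 gene models. What they deposited is a table of estimated counts for each gene in 6 libraries. The submitters' processing notes name Partek 10.0 and STAR 2.7.8. Estimated counts as deposited were rounded to whole numbers, of which 56.9% to 60.7% per library were already whole. The table holds 17831 genes, none with a total under 10, and 17643 gene columns were not listed singly in the record of columns. Genes were filtered with edgeR's filterByExpr (10 reads in a library of median size, 15 in total), scaled with TMM and tested with edgeR 4.0.16 in R 4.3.3 (quasi-likelihood, WT and SIRPα KO libraries, no covariate, adjusted p under 0.05). The alternatives used DESeq2 1.42.0 and limma 3.58.1. Level per length divides CPM by the longest GENCODE M21 transcript. The length and GC correction fitted splines with 5 degrees of freedom over 8863 genes and entered edgeR as an offset. The pipeline was tested on simulated data. Libraries were grouped by the genotype in the labels, and no 2 libraries of a group agreed within sampling noise. The members and lists were chosen with earlier results of these data known. Named genes are the 10 members, every tested gene of the 2 related family lists, at most the 4 largest past the threshold per direction in each other list, and the nearest profiles. Gata3, Il1rl1, Prdx2, Junos, Gm11175, Sirpa, Itch and the markers at 0 were named after their values were seen. The alternatives were other scalings and filters, each library left out, a replicate block, code sums, code as a random effect, the length and GC correction and thinning to the smallest library. The authors' own comparisons were not used. Some genes that the rule would name are not reported here.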

Additional observations from a re-analysis of the deposited data

How the results depend on the processing

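Of the 9 genes tested, 0 passed the threshold in edgeR, with 3 at an unadjusted p under 0.05. The number was 3 with DESeq2, 2 with upper quartile factors, 2 with at least 10 reads in every library, 1 with library size alone and 0 to 2 with a library left out. Log2 fold changes past the threshold were those of Junb (-0.48 with DESeq2, -0.61 with upper quartile factors, -0.50 with library size alone, -0.52 with at least 10 reads in every library), Jund (-1.11, -1.25 and -1.15 with DESeq2, upper quartile factors and 10 reads) and Egr1 (0.78 with DESeq2). Without WT replicate 3, Junb was at -0.33 and Egr1 at 0.52. Values that turned sign were Jun (-0.023) and Nr4a1 (-0.057) with upper quartile factors, Fosl2 with the length and GC correction (-0.16) and without WT replicate 3 (-0.16), Egr2 without WT replicate 2 (0.071) or SIRPα KO replicate 3 (0.023), and Jun without WT replicate 2 (-0.015) or SIRPα KO replicate 1 (-0.012). None of these was past the threshold, and the cause was not tested.

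With a library left out, values ran from -0.58 to -0.33 for Junb, -1.42 to -0.95 for Jund, 0.52 to 0.93 for Egr1, -0.23 to 0.07 for Egr2, -0.16 to 0.47 for Fosl2 and -0.015 to 0.17 for Jun. The median of the 9 ran from -0.23 to 0.023, and was -0.0036 with libraries of one code summed. Of the 9 genes, those whose groups did not overlap numbered 2 to 5 with a library left out, where 47.1% to 55.3% of all genes did not, and 6 with code sums, where 62.9% did not. Fewer libraries overlap less often, so nothing is read from these counts. The share of Junb in the level of the 9 genes tested, KO minus WT, ran from -2.63 to 2.75 percentage points around 0.592. Over all genes 1600 passed, against 3214 with DESeq2, 10 with code sums and 16 to 2607 with a library left out (16, 17 and 17 without SIRPα KO replicate 1, 2 or 3, and 2607 without WT replicate 3). In the related lists together 19 passed, against 30 with DESeq2, 0 with code sums and 0 to 33 with a library left out. In a fit with the replicate block the adjusted p from edgeR was 0.0693 for Junb, 0.0513 for Jund and 0.0712 for Egr1, and 1118 genes passed in all. Same-numbered libraries correlated at -0.14, 0.19 and 0.05, and differently numbered ones at -0.28 to 0.22. These values show no pairing by number, but with 3 libraries a group they cannot exclude it. Depth limits Fosb, and to a lesser extent Egr2 and Egr3.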
